A study of Mus musculus with 7 samples.

Results

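The genes of the constitutive proteasome were followed in whole mouse spleens, 3 enlarged spleens of the genotype Vav1-iCre;Brca1F22-24/F22-24 and 4 spleens of C57BL6 mice labelled Brca1+/+, all taken at 2 to 3 months of age. Members were all genes of the count table whose symbol is Psma, Psmb, Psmc or Psmd followed by a number, without the immunoproteasome subunits Psmb8, Psmb9 and Psmb10. The rule gave 36 of 24062 genes, and each of the 36 was among the 15188 genes with enough counts to be tested. Vav1-iCre drives Cre in the cells of the blood lineage, and the floxed Brca1 allele loses exons 22 to 24. Recombinase, altered allele and enlargement were described for the mutant group alone, so they cannot be told apart here. The labels name every library as a separate spleen, and the p-values speak for the spread among the spleens sampled. The mutant libraries held 30660980 to 51680976 counts and the wild-type libraries 26889712 to 63612532.

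The proteasome is the protease that degrades proteins tagged with ubiquitin. Its core particle is a barrel of stacked rings, outer rings of alpha subunits that form the gate and inner rings of beta subunits, of which Psmb6 (caspase-like site), Psmb7 (trypsin-like site) and Psmb5 (chymotrypsin-like site) cut the substrate. A regulatory particle caps the barrel. Its base holds ATPases that unfold the substrate and pull it in, and its lid removes the ubiquitin chain. In lymphoid tissue Psmb9, Psmb10 and Psmb8 can replace Psmb6, Psmb7 and Psmb5, which gives the immunoproteasome and changes the peptides available to MHC class I. By known role the 36 members comprised 8 alpha subunits, 8 beta subunits, 6 base ATPases, 3 other base subunits, 8 lid subunits and 3 chaperones of base assembly (Psmd5, Psmd9 and Psmd10). The label constitutive does not hold for all of them: Psma8 is an alpha subunit of the testis and Psmb11 the beta subunit of thymic cortical epithelium, and both had under 1000 counts in all libraries together, against at least 8038 for each other member.

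The promoters of 5 members are shown as examples. The ubiquitous subunit genes rose in the mutant, while Psmb11, which starts 7315 bases from Psmb5, fell, a call that several alternative fits lost. Whether promoter letters relate to the direction of change was not tested. Each line gives the 250 bases before the transcription start, 5′ to 3′ on the gene's strand, from RefSeq on build GRCm38.p6. Capitals mark the letters of CCAAT (the CCAAT box, bound by NF-Y), of CCGGAAG (the core bound by ETS factors) or of the motif of nuclear respiratory factor 1 (NRF1; GCGCA, any base, then GCGC), on either strand.
Psma2 promoter, chr13:14612992-14613241, plus strand: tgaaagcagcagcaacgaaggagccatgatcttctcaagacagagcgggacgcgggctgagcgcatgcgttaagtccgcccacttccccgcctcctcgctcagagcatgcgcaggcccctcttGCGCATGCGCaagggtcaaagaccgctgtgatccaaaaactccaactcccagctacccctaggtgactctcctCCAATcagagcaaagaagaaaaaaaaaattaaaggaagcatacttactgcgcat
Psmd12 promoter, chr11:107479278-107479527, plus strand: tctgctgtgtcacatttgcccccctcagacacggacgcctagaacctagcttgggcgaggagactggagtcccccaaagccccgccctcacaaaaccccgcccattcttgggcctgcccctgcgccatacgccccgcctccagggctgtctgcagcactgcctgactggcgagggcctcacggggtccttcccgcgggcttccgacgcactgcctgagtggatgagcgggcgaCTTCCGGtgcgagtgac
Psmc6 promoter, chr14:45329574-45329823, plus strand: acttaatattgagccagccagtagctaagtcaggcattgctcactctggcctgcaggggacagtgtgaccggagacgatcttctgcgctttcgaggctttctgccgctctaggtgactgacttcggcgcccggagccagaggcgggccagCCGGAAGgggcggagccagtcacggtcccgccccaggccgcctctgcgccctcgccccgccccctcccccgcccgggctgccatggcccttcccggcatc
Psmb5 promoter, chr14:54617996-54618245, minus strand: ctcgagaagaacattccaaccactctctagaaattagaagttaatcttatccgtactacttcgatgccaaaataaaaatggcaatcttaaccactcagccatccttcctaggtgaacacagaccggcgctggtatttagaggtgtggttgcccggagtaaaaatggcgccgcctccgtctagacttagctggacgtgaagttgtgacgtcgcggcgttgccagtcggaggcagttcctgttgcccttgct
Psmb11 promoter, chr14:54625060-54625309, plus strand: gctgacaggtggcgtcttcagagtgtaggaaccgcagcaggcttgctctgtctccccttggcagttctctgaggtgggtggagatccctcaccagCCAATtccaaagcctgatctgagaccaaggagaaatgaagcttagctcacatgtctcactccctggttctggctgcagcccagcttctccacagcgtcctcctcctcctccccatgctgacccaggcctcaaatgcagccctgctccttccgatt
Psma2 held GCGCATGCGC with its first base 127 bases before the start and CCAAT 54 bases before it. Psmd12 held the ETS core on the other strand 17 bases before its start, and Psmc6 held it 100 bases before its start. Psmb5 had none of these letters in its 250 bases, and Psmb11 had CCAAT 155 bases before its start.

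Promoter sequences were found for 29 of the 36 members, and motifs were counted on both strands in 300-base windows that add the first 50 bases of the transcript. The ETS core stood in 10 of 29 members (34.5%), against 16.4% of the promoters of tested genes and 9.12% of all 27025 promoters. The NRF1 motif stood in 6 members (20.7%), against 9.36% of tested and 4.78% of all promoters. CCAAT was found in 11 members (37.9%), against 38.4% of tested and 37.9% of all promoters. The antioxidant response element, bound by the factors Nfe2l1 and Nfe2l2, was searched as TGANNNNGC and more strictly as TGANTCAGC, which is contained in the looser motif. The loose form was present in 16 members (55.2%), against 43.1% of tested and 41.4% of all promoters, and the strict form in 1 of the 29, Psmb5, but not within the 250 bases before its start (3.45% of members, 1.03% of tested and 1.17% of all promoters). TATAAA was found in 3 members, Psmb4, Psmd1 and Psmd6 (10.3%), against 7.48% of tested and 14.2% of all promoters. These shares describe letters in a window, and no test was made on them.

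Nearly the whole set of members was higher in the mutant spleens. In the quasi-likelihood test of edgeR, with an adjusted p under 0.05 as the threshold, 34 of 36 members rose, 1 fell (Psmb11) and 1 did not pass (Psma8). Over all tested genes 28.5% rose and 28.9% fell. The 34 rising members were 1.45-fold (Psmd11) to 3.23-fold (Psmd3) higher, 27 of them at least 2-fold, with adjusted p-values of 1.54e-04 to 0.0372 and standard errors (SE) of 0.11 to 0.26 on the log2 scale. Every mutant spleen stood above every wild-type spleen for each of these 34 genes, a separation seen for 29.2% of tested genes (32.6% were separated in the opposite sense). The median log2 fold change was 1.30 over the members and -0.02 over all tested genes. Scaled by library size alone in place of TMM factors, which are trimmed means of the log ratios between libraries, the median over all genes was -0.26, that over the members 1.06, and 31 members rose, beside 20.8% of all genes higher and 33.8% lower.

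Summed over the 36 members, transcripts reached 5950, 6903 and 7130 CPM (counts scaled to a common library total with TMM factors) in the mutant spleens, against 2959, 2955, 2714 and 2610 CPM in wild type. The means were 6661 ± 626 CPM in mutant and 2809 ± 175 CPM in wild type (SD, n = 3 and 4), 2.37-fold apart, and the groups were far from overlapping. As a share of all counts of a library the members took 0.558% to 0.639% in mutant and 0.286% to 0.311% in wild type. The mutant spleens differed among themselves. In TMM-scaled CPM, mutant 1 was the lowest mutant for 27 of the 34 rising members and mutant 3 the highest for 20. As a share of library counts, these 34 members took 0.558%, 0.639% and 0.614% in mutants 1 to 3, with mutant 2 the highest. Relative to the wild-type mean, the median member stood at 1.06, 1.31 and 1.33 on the log2 scale in mutants 1 to 3, and at 0.06, 0.07, -0.06 and -0.11 in wild-type spleens 1 to 4. The coefficient of variation of a rising member was 11.7% in mutant and 9.25% in wild type at the median, with maxima of 34.4% for Psmd5 in mutant and 31.7% for Psmd9 in wild type. In RNA of a whole organ, a change in the number of cells of a type and a change in RNA per cell cannot be told apart.

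**Figure D1:**
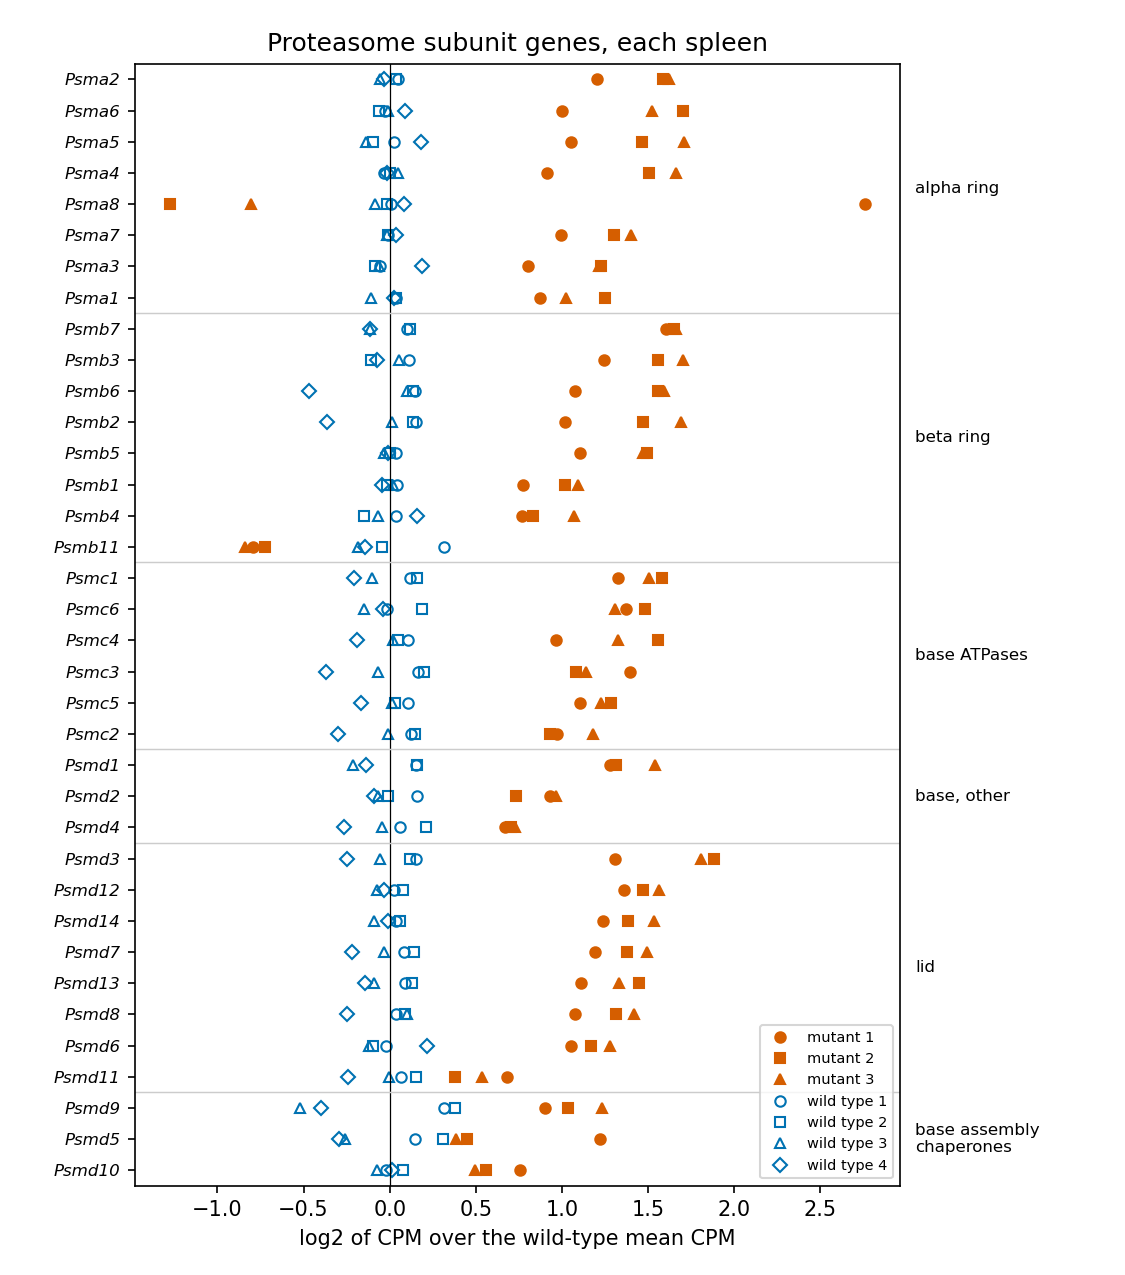
Log2 of the CPM of each member over its wild-type mean CPM (x axis), 1 symbol per spleen (3 mutant filled, 4 wild type open), with members grouped by role and ordered by fold change within it. For 34 members all mutant symbols lie to the right of all wild-type symbols; Psma8 has 1 mutant spleen far to the right and 2 to the left, and Psmb11 has all 3 mutant spleens to the left.

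The beta ring holds the cutting sites, and 7 of its 8 members rose (median log2 fold change 1.39). Psmb7, the trypsin-like subunit, stood at 211.5, 218.6 and 220.6 CPM in mutant, against 74.4, 75.4, 64.2 and 64.2 CPM in wild type. It was the strongest of the ring, 3.12-fold higher (log2 1.64, SE 0.12, adjusted p = 1.54e-04, edgeR), and its 3 mutant spleens were almost level. Psmb6, the caspase-like subunit, had 159.9, 223.9 and 228.5 CPM in mutant, against 84.2, 83.4, 81.3 and 54.8 CPM in wild type. The groups did not overlap, although wild-type spleen 4 lay well below the other 3, and the gene rose 2.69-fold (log2 1.43, SE 0.20, adjusted p = 9.96e-04, edgeR). Psmb5, the chymotrypsin-like subunit (mm10, chr14:54614120-54617995, minus strand), had 92.2, 120.9 and 118.8 CPM in mutant, against 44.1, 42.9, 41.9 and 42.7 CPM in wild type, where the 4 spleens were nearly equal. That is 2.58-fold (log2 1.37, SE 0.13, adjusted p = 2.94e-04, edgeR). The microRNA gene Mir686 lies within the Psmb5 span and was counted at 23.2, 25.1 and 26.6 CPM in mutant, against 9.76, 9.85, 9.32 and 11.9 CPM in wild type, so the split of reads between the 2 genes is uncertain. The ring's non-catalytic subunits that rose were Psmb3 (log2 fold change 1.51), Psmb2 (1.42), Psmb1 (0.97) and Psmb4 (0.90).

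Psmb11, the thymic epithelial beta subunit (mm10, chr14:54625310-54629556, plus strand), was the lone member lower in the mutant. It had 31, 19 and 19 counts in mutant, against 39, 29, 44 and 76 in wild type. In CPM these are 0.639, 0.670 and 0.619 CPM in mutant and 1.38, 1.07, 0.974 and 1.00 CPM in wild type, separated but low in every spleen. The log2 fold change was -0.78 (SE 0.27, adjusted p = 0.0390, edgeR). The call was lost in DESeq2 (adjusted p = 0.0647), in limma-voom (adjusted p = 0.0609) and without any one of the libraries other than wild-type spleen 4 (adjusted p of 0.0598 to 0.112). Of the 9 thymic epithelial markers, which include Psmb11, Foxn1 and Krt5 were at 0 in all 7 libraries. The markers summed to 6.12 to 6.77 CPM in mutant and 11.5 to 13.2 CPM in wild type. Of 6 tested markers 1 was higher and 4 were lower, beside 28.5% and 28.9% of all tested genes. Without any one of mutant 2 and wild-type spleens 1, 2 and 3, 2 were lower. The part of these markers in the Psmb11 value was not tested.

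In the alpha ring, the gate of the core particle, 7 of 8 members rose (median log2 fold change 1.39). Psma2 had 240.6, 313.0 and 320.8 CPM in mutant, against 108.0, 106.8, 100.5 and 101.7 CPM in wild type, and rose most (log2 1.48, SE 0.14, adjusted p = 2.95e-04, edgeR). Psma1 had 189.8, 246.2 and 210.4 CPM in mutant, against 106.3, 106.1, 96.0 and 105.4 CPM in wild type, and rose least (log2 1.06, SE 0.13, adjusted p = 6.10e-04, edgeR). The other ubiquitous alpha subunits lay between them, Psma6 at 1.44, Psma5 at 1.43, Psma4 at 1.40, Psma7 at 1.24 and Psma3 at 1.10. An uncharacterised gene, 3110056K07Rik, overlaps Psma3 on the opposite strand with 6382 counts in all. It stood at 11.3, 14.2 and 12.2 CPM in mutant, against 29.7, 23.8, 32.2 and 28.0 CPM in wild type, and whether counting used strand is not given in the sources used here, so its reads and those of Psma3 may be mixed.

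Psma8, the alpha subunit of the testis proteasome, followed no common pattern. Its counts were 393, 14 and 21 in mutant, against 34, 32, 51 and 96 in wild type, or 8.10, 0.493 and 0.684 CPM in mutant and 1.20, 1.18, 1.13 and 1.27 CPM in wild type. Mutant 1 lay far above and mutants 2 and 3 below the wild-type spleens, which were nearly equal. The fitted difference, 1.38 on the log2 scale (SE 0.88), did not pass (adjusted p = 0.212, edgeR). Without mutant 1 it was -0.94 and passed as lower (adjusted p = 0.0237, where the alternatives together spanned 0.0237 to 0.873). Of 7 male germ cell markers Sycp1 was at 0 in every library, and the list summed to 6.12, 1.23 and 1.50 CPM in mutant and to 2.62, 2.52, 0.730 and 1.19 CPM in wild type. Meiob, a meiotic gene of that list, stood at 3.63, 0.282 and 0.293 CPM in mutant and 0.133 to 0.460 CPM in wild type, so mutant 1 was high for it and it made up most of that spleen's sum. Ddx4, the other tested marker of the list, stood at 2.04, 0.423 and 1.11 CPM in mutant and 0.487 to 2.18 CPM in wild type, with mutant 1 inside the wild-type range. The part of germ cell transcripts in the Psma8 value was not tested.

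All 6 ATPases of the base, the ring that unfolds substrates, rose (median log2 fold change 1.26). Psmc1 had 236.5, 281.7 and 267.9 CPM in mutant, against 102.4, 105.3, 87.8 and 81.7 CPM in wild type, and was the highest of them (log2 1.47, SE 0.15, adjusted p = 3.08e-04, edgeR). Psmc2 had 183.0, 177.7 and 211.3 CPM in mutant, against 101.4, 103.3, 92.6 and 75.8 CPM in wild type, and was the lowest (log2 1.03, SE 0.15, adjusted p = 0.00107, edgeR). Both genes kept a wide gap between the groups. Psmc6 (1.39), Psmc4 (1.30), Psmc3 (1.21) and Psmc5 (1.21) lay between them. Mutant 1, the lowest mutant for most members, was the highest for Psmc3, at 329.8 CPM beside 265.9 and 276.3 CPM in the other mutants and 97.1 to 144.2 CPM in wild type.

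The 3 base subunits without ATPase activity rose less evenly (median 0.88). Psmd1, a scaffold that docks ubiquitin receptors, had 279.4, 286.7 and 335.4 CPM in mutant, against 128.3, 128.7, 99.4 and 104.6 CPM in wild type (log2 1.38, SE 0.16, adjusted p = 4.24e-04, edgeR). Psmd4, which itself binds ubiquitin chains, had 176.0, 180.5 and 183.3 CPM in mutant, against 115.4, 128.3, 107.4 and 92.3 CPM in wild type (log2 0.70, SE 0.14, adjusted p = 0.00428, edgeR). The mutant spleens were nearly level for Psmd4 and all above wild type, and Psmd2, the other large scaffold, lay between both at 0.88.

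All 8 subunits of the lid rose (median 1.33), and they included both the strongest and the weakest increase of the whole set. Psmd3 (mm10, chr11:98682554-98695978, plus strand), a structural subunit, had 190.1, 283.5 and 268.8 CPM in mutant, against 85.4, 83.2, 73.8 and 64.5 CPM in wild type (log2 1.69, SE 0.18, adjusted p = 3.80e-04, edgeR). Psmd11, another structural subunit on the same chromosome (mm10, chr11:80428615-80472133, plus strand), had 129.1, 104.5 and 116.6 CPM in mutant, against 84.2, 89.3, 80.1 and 68.1 CPM in wild type (log2 0.54, SE 0.14, adjusted p = 0.0129, edgeR). The lowest mutant spleen was only a little above the highest wild-type one for Psmd11, and its call was lost with library size alone (log2 0.30, adjusted p = 0.0863). Psmd12, the member with the smallest SE (0.11), rose by 1.47, and Psmd14, the enzyme that cuts the ubiquitin chain off the substrate, by 1.39. Psmd7, the partner of Psmd14, stood at 1.36, Psmd13 at 1.30, Psmd8 at 1.28 and Psmd6 at 1.17.

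The 3 chaperones that help to build the base, and that are not part of the finished proteasome, also rose, with a lower median of 0.74; with library size alone Psmd9 alone of the 3 was called. Psmd9 had 47.1, 51.6 and 59.3 CPM in mutant, against 31.4, 32.8, 17.5 and 19.1 CPM in wild type (log2 1.06, SE 0.26, adjusted p = 0.00905, edgeR). Wild-type spleens 1 and 2 lay above 3 and 4 for this gene. Psmd10 had 39.6, 34.6 and 33.1 CPM in mutant, against 23.2, 24.8, 22.3 and 23.6 CPM in wild type (log2 0.61, SE 0.13, adjusted p = 0.00604, edgeR), and was lost with library size alone (log2 0.37, adjusted p = 0.0871). Psmd5 had 109.4, 64.2 and 61.4 CPM in mutant, against 52.0, 58.1, 39.3 and 38.3 CPM in wild type, with mutant 1 apart from the other mutants and those close to wild-type spleen 2. It rose by 0.74 on the log2 scale (SE 0.25, adjusted p = 0.0372, edgeR), the least stable increase of the 34. It was not called without mutant 1 (log2 0.50, adjusted p = 0.0694), mutant 2 (adjusted p = 0.0547) or wild-type spleens 1, 3 or 4 (adjusted p of 0.0631 to 0.0952), nor with library size alone (adjusted p = 0.107).

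Levels were compared between genes only after division by the length of the exons, as RPKM, the CPM per kilobase. The 31 ubiquitous subunits, without Psma8, Psmb11 and the chaperones, had mean RPKM of 39.4 (Psmd11) to 256 (Psmb6) in mutant, median 123, and of 24.9 (Psmd12) to 95.1 (Psmb6) in wild type, median 52.3. Median RPKM of the role groups was 187 in mutant and 60.0 in wild type for the beta ring, and 174 in mutant and 78.2 in wild type for the alpha ring. It was 137 in mutant and 57.3 in wild type for the ATPases, and 93.9 in mutant and 36.1 in wild type for the lid. The base chaperones were lower throughout, at 17.8 to 24.3 RPKM in mutant and 9.71 to 16.0 RPKM in wild type. Psma8 and Psmb11 averaged 1.83 and 0.151 RPKM in mutant and 0.707 and 0.261 RPKM in wild type. The exon lengths come from a later annotation than the counts, so levels between genes are approximate.

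**Figure D2:**
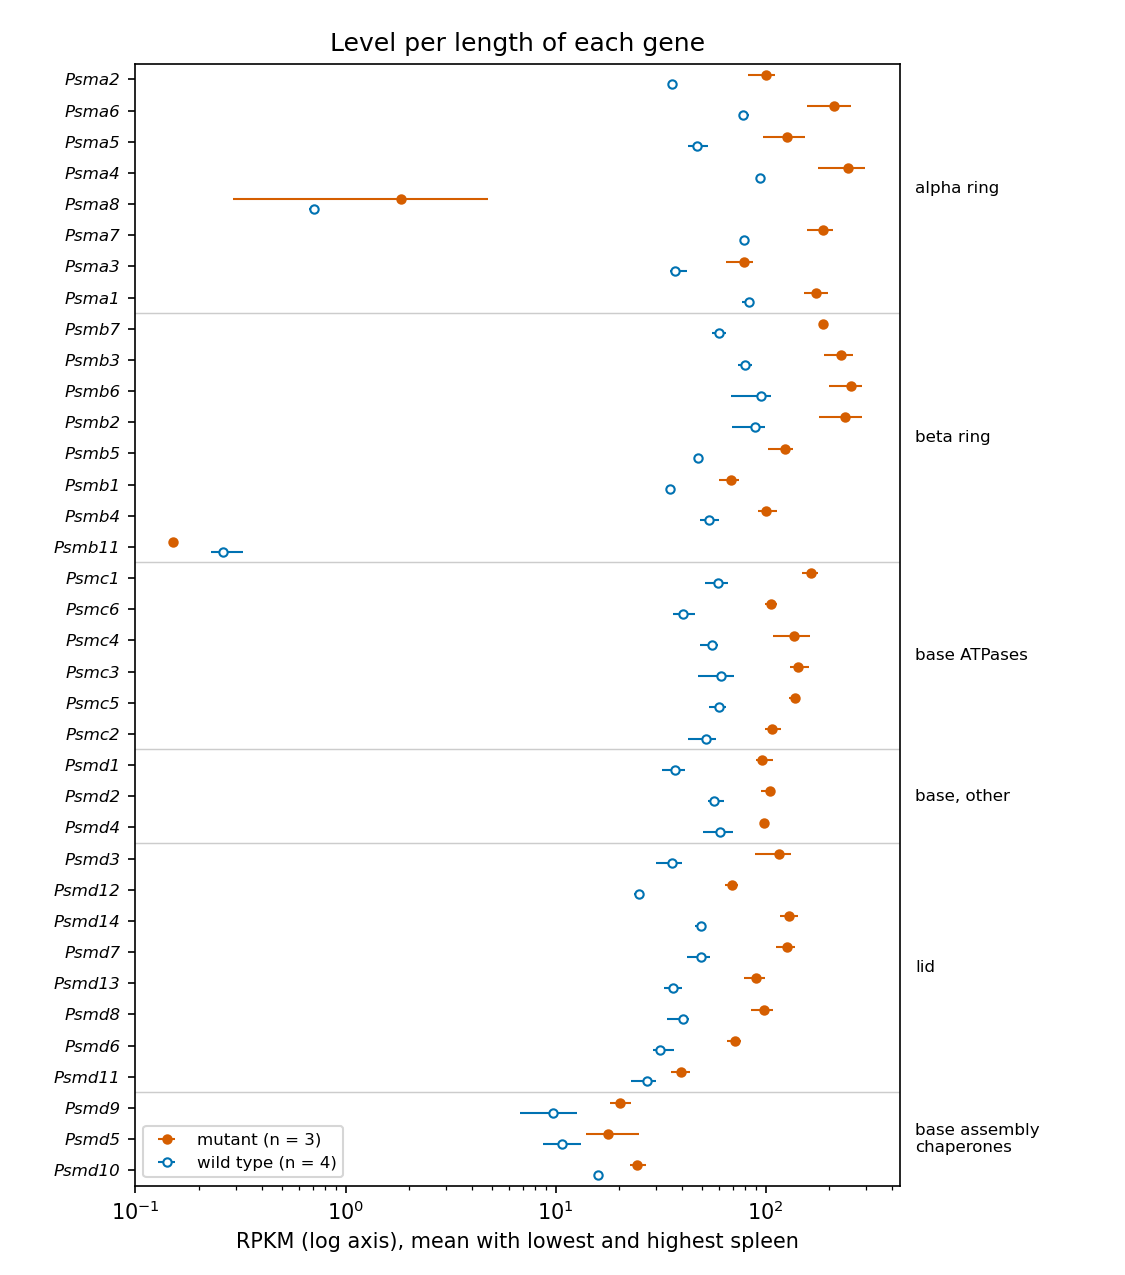
Mean RPKM of each member (x axis, log scale) in mutant (filled, n = 3) and wild type (open, n = 4), with lines from the lowest to the highest spleen and members grouped by role. The means of the 31 ubiquitous subunits in both groups lie within a band from 24.9 to 256 RPKM, and the means of the chaperones lie below it. Lines of single spleens can reach past these limits, and Psma8 and Psmb11 lie under 10 RPKM.

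Of the 3 immunoproteasome subunits, which take the places of Psmb6, Psmb7 and Psmb5, 1 fell and the other 2 did not pass. Over all tested genes 28.9% fell and 28.5% rose. Psmb9 had 39.7, 57.9 and 49.9 CPM in mutant, against 99.3, 97.9, 99.0 and 98.4 CPM in wild type, so the groups stood well apart. It fell to 0.499 of wild type (log2 -1.004, SE 0.15, adjusted p = 0.00116, edgeR). Psmb10 had 44.9, 71.1 and 81.3 CPM in mutant, against 79.0, 75.5, 82.1 and 74.2 CPM in wild type (log2 -0.24, SE 0.20, adjusted p = 0.336, edgeR). Psmb8 had 163.4, 290.9 and 324.6 CPM in mutant, against 197.6, 183.4, 213.0 and 185.9 CPM in wild type (log2 0.41, SE 0.23, adjusted p = 0.163, edgeR). For both, mutant 1 was the lowest of all 7 spleens, and the groups overlapped. Without mutant 1, Psmb8 was called higher (log2 0.74, adjusted p = 0.00173, edgeR) and Psmb10 stood at 0.06 (adjusted p = 0.654, edgeR).

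The balance between each immunoproteasome subunit and the constitutive subunit it replaces was taken as the log2 ratio of their counts within a spleen, which does not depend on scaling between libraries. Psmb9 over Psmb6, the caspase-like position, was -2.01, -1.95 and -2.19 in mutant and 0.24, 0.23, 0.28 and 0.85 in wild type, a difference of -2.45. Psmb10 over Psmb7, the trypsin-like position, was -2.23, -1.62 and -1.44 in mutant and 0.09, 0.00, 0.35 and 0.21 in wild type, a difference of -1.93. Psmb8 over Psmb5, the chymotrypsin-like position, was 0.83, 1.27 and 1.45 in mutant and 2.16, 2.10, 2.35 and 2.12 in wild type, a difference of -1.001. All 3 ratios were lower in each mutant spleen than in any wild-type spleen. An exact two-sided permutation test gave p = 0.0571 for each, also after adjustment over the 3 ratios, which is the smallest p that 3 against 4 spleens allow, so none could pass 0.05. The sign of each difference was the same whichever library was left out. The ratios are not corrected for gene length, so only their shift between groups, and not their height, can be read.

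**Figure D3:**
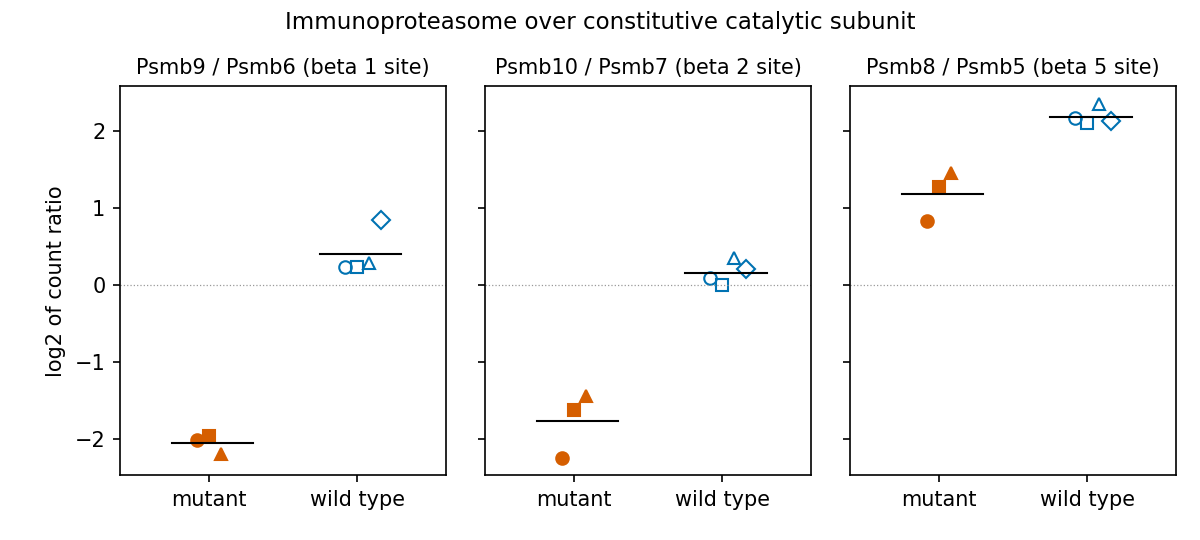
Log2 ratio of counts of Psmb9 to Psmb6, Psmb10 to Psmb7 and Psmb8 to Psmb5 (y axis), 1 symbol per spleen (3 mutant, 4 wild type), with a line at the group mean. In every panel the mutant spleens lie below the wild-type spleens, with differences of the means of -2.45, -1.93 and -1.001.

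Other genes of proteasome assembly and of the regulatory particle rose with the members, where 28.5% of all tested genes rose. All 5 chaperones of the core particle rose (median log2 fold change 1.22). Of these Psmg4 (log2 0.89, adjusted p = 0.0115, edgeR) was not called with library size alone (log2 0.63, adjusted p = 0.0637) or without wild-type spleens 1 and 2 (adjusted p = 0.120). Psmg1, which starts the assembly of the alpha ring together with Psmg2, had 56.5, 67.0 and 78.4 CPM in mutant, against 13.6, 12.7, 14.1 and 12.8 CPM in wild type. At 5.06-fold (log2 2.34, SE 0.15, adjusted p = 1.45e-04, edgeR) its increase was above that of every member. Psmg2 had 37.1, 43.2 and 44.1 CPM in mutant, against 17.6, 16.6, 16.7 and 20.3 CPM in wild type (log2 1.22, SE 0.15, adjusted p = 5.12e-04, edgeR), and Pomp, which matures the beta ring, rose by 1.11. All 4 further parts of the regulatory particle found in the table rose (median 1.08). Uchl5, a deubiquitinase of the base, had 86.5, 155.3 and 133.1 CPM in mutant, against 35.8, 33.7, 31.6 and 35.3 CPM in wild type (log2 1.87, SE 0.20, adjusted p = 3.66e-04, edgeR). Adrm1, the ubiquitin receptor that binds Uchl5, had 112.2, 123.2 and 143.9 CPM in mutant, against 61.8, 69.0, 60.8 and 55.6 CPM in wild type (log2 1.03, SE 0.14, adjusted p = 7.26e-04, edgeR). Neither gene overlapped between the groups, and 29.2% of tested genes had every mutant spleen above every wild-type spleen.

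Of the 5 activators and inhibitors that dock on the core particle in place of the regulatory particle, 0 passed by edgeR at the adjusted threshold (median 0.28). Over all tested genes 28.5% rose and 28.9% fell. Psme3, the nuclear activator PA28 gamma, had 635.9, 351.7 and 382.1 CPM in mutant, against 243.9, 396.5, 163.9 and 147.9 CPM in wild type (log2 0.94, SE 0.38, unadjusted p = 0.0397, adjusted p = 0.0656, edgeR), and was the 1 gene of the 5 with an unadjusted p under 0.05. DESeq2 (adjusted p = 0.0306) and limma-voom (adjusted p = 0.0473) called Psme3 higher and no other gene of the list. Psmf1, an inhibitor, had 120.6, 70.0 and 88.1 CPM in mutant, against 68.2, 91.8, 38.0 and 36.3 CPM in wild type (log2 0.67, SE 0.36, adjusted p = 0.147, edgeR). In both, wild-type spleen 2 reached into the mutant range, and without it both were called higher (Psme3 log2 1.30, adjusted p = 0.0121; Psmf1 log2 0.97, adjusted p = 0.0382, edgeR). Psme1 and Psme2, the interferon-inducible activator PA28 alpha and beta, stood at -0.11 each (SE 0.22 and 0.21), and without mutant 1 at 0.16 and 0.19, not called in either fit.

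Of 4 genes known to control proteasome transcription, 2 fell in the mutant and 2 did not pass in edgeR, where 28.9% of all tested genes fell. Nfe2l1, the transcription factor that raises subunit genes when proteasome activity is short, had 108.9, 83.8 and 99.4 CPM in mutant, against 145.5, 150.2, 159.2 and 151.3 CPM in wild type (log2 -0.64, SE 0.13, adjusted p = 0.00481, edgeR). Ngly1, the glycanase needed to activate Nfe2l1, had 36.6, 25.6 and 29.3 CPM in mutant, against 42.6, 43.8, 42.7 and 50.2 CPM in wild type (log2 -0.56, SE 0.16, adjusted p = 0.0205, edgeR). All mutant spleens lay below all wild-type spleens for both, a separation seen for 32.6% of tested genes. Without mutant 2 the call of Ngly1 was lost (adjusted p = 0.0556, edgeR). With the replicate block, and also without wild-type spleens 1 and 2, only 1 of the 4 genes was called lower. The protease Ddi2 (log2 0.46, SE 0.18, adjusted p = 0.0584, edgeR) and the related factor Nfe2l2 (log2 0.38, SE 0.14, adjusted p = 0.0517, edgeR) did not pass. Both were called higher by DESeq2 (adjusted p = 0.0362 for Ddi2 and 0.0282 for Nfe2l2) and by edgeR with RLE size factors (adjusted p = 0.0402 and 0.0388). Transcript levels say nothing of the processing that activates Nfe2l1 protein.

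Upstream of the proteasome, 2 of the 5 genes reported here for ubiquitin and its activating enzymes rose and 3 did not pass, where 28.5% of all tested genes rose. Rps27a, a fusion of ubiquitin with a ribosomal protein, had 1107.5, 1246.2 and 1285.5 CPM in mutant, against 868.1, 715.6, 825.5 and 663.8 CPM in wild type (log2 0.66, SE 0.15, adjusted p = 0.00825, edgeR). Uba1, the main activating enzyme, had 499.6, 425.4 and 611.8 CPM in mutant, against 340.3, 318.9, 364.9 and 285.7 CPM in wild type (log2 0.65, SE 0.17, adjusted p = 0.0133, edgeR). Their groups did not overlap, which in this direction held for 29.2% of tested genes, and the median of the 5 was 0.65. With library size alone Uba1 was not called (log2 0.40, adjusted p = 0.0695). DESeq2 called 3 of the 5. Among 9 shuttle factors and partners of the unfoldase p97 (Vcp), 6 rose and 3 did not pass (median 0.78). Rad23b, which carries ubiquitinated proteins to the proteasome, had 308.3, 358.1 and 502.6 CPM in mutant, against 154.9, 156.3, 169.7 and 152.8 CPM in wild type (log2 1.30, SE 0.18, adjusted p = 9.56e-04, edgeR). Nsfl1c, a p97 adaptor, had 120.4, 148.2 and 155.1 CPM in mutant, against 75.0, 70.1, 77.8 and 54.1 CPM in wild type (log2 1.03, SE 0.17, adjusted p = 0.00163, edgeR).

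**Figure D4:**
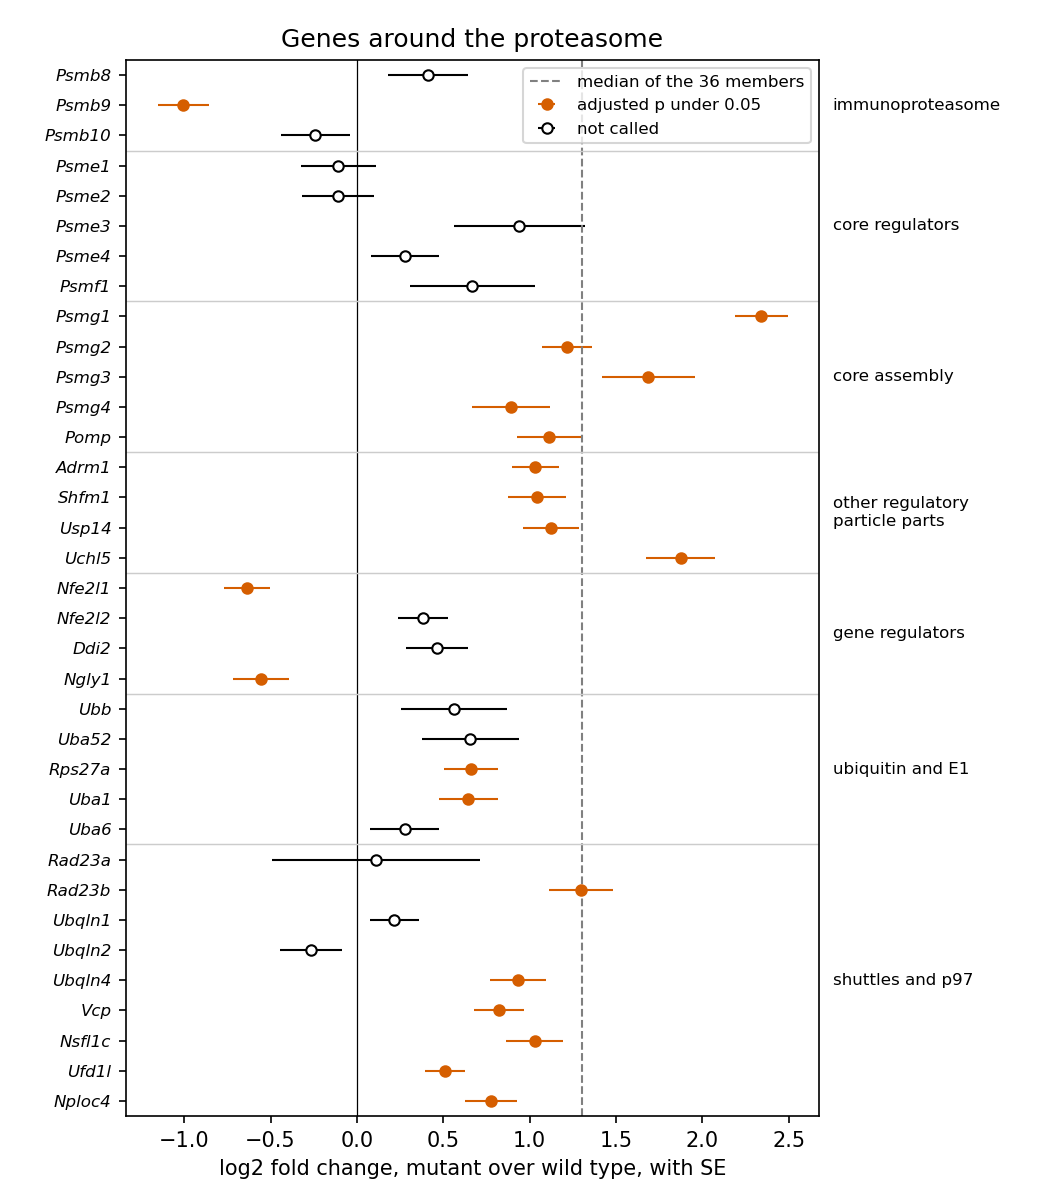
Log2 fold change of mutant over wild type with its SE (x axis) for genes around the proteasome, grouped by role; filled symbols passed an adjusted p under 0.05, and the dashed line is the members' median of 1.30. All 9 core assembly and other regulatory particle genes passed, from Psmg4 at 0.89 to Psmg1 at 2.34, with 3 of them beyond that line, while none of the 5 core regulators passed, and, of the genes that passed, Nfe2l1, Ngly1 and Psmb9 lie below 0.

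Markers of several other cell types differed between the groups as well. The counts called in these lists stand beside 28.5% of all tested genes that rose and 28.9% that fell. Of 18 markers of dividing cells 15 rose, and the 18 summed to 8197, 8797 and 7758 CPM in mutant, against 3198, 4952, 1108 and 1407 CPM in wild type. DESeq2 and limma-voom each called 17 of them higher. In edgeR 13 rose without mutant 2, and all 18 rose without wild-type spleen 2. All 10 immature T cell markers rose (3249 to 6043 CPM in mutant, 445 to 578 CPM in wild type), and all 10 mature B cell markers fell (43.1 to 243 CPM in mutant, 4397 to 5857 CPM in wild type). Dendritic cell markers, 7 of 8 of which fell, summed to 4.85 to 44.7 CPM in mutant and 246 to 358 CPM in wild type. For monocytes and macrophages 7 of 8 fell, with sums of 145 to 635 CPM in mutant and 1899 to 2432 CPM in wild type; without mutant 2, 3 of 8 were called. Of 7 natural killer cell markers 5 fell and 1 rose (median log2 fold change -5.16). Ncr1, a receptor found on these cells, had 0.206, 0.106 and 0 CPM in mutant and 15.7 to 18.7 CPM in wild type. The riser was Gzma, a granzyme of cytotoxic cells, so that the list's sum was higher in mutant, at 264 to 528 CPM, than in wild type, at 140 to 181 CPM. Of 8 stromal and endothelial markers 5 fell and Pdgfrb rose, with sums of 344 to 592 CPM in mutant and 651 to 974 CPM in wild type. Of 6 platelet markers 3 fell, with sums of 5.21 to 67.7 CPM in mutant and 158 to 224 CPM in wild type; 1 was called without mutant 1, 0 without wild-type spleen 2 and 5 without mutant 3. For red pulp macrophages 1 of 6 fell (288 to 1725 CPM in mutant, 1670 to 2105 CPM in wild type), or 4 without mutant 1 and 2 without mutant 3, and for neutrophils 1 of 7 (14.3 to 499 CPM in mutant, 527 to 1300 CPM in wild type). Of 10 erythroid markers 0 passed in edgeR, limma-voom or DESeq2, and 0 had an unadjusted p under 0.05 in edgeR; without wild-type spleen 2, 1 rose, and without wild-type spleens 1 and 2, 3 rose. They summed to 35018, 7281 and 9389 CPM in mutant and to 27577, 69031, 5056 and 5509 CPM in wild type, with mutant 1 and wild-type spleens 1 and 2 high. The entries Hbb-b1 and Hbb-bs overlap and had identical counts in every library, 9613 CPM each in mutant 1 and 24624 CPM each in wild-type spleen 2. Their reads therefore enter these sums 2 times, and the 10 entries are not 10 separate genes. Within wild type, dividing-cell markers differed 4.47-fold between spleens 2 and 3. The members' sum differed at most 1.13-fold between any pair of wild-type spleens. Wild-type spleens 1 and 2 were the highest of their group for the dividing-cell sum and for the erythroid sum alike. Between the groups the dividing-cell sum and the members' sum were higher in every mutant spleen. The part of these cell types in the increase of the members was not tested.

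**Figure D5:**
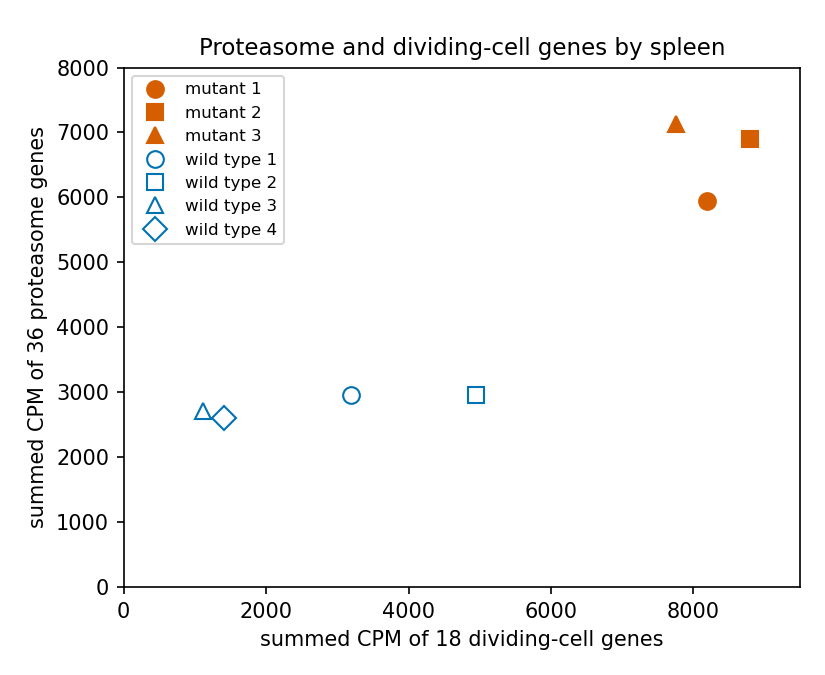
Summed CPM of the 36 members (y axis) against summed CPM of 18 dividing-cell markers (x axis), 1 symbol per spleen (3 mutant, 4 wild type). Wild-type spleens spread from 1108 to 4952 CPM on the x axis at 2610 to 2959 CPM on the y axis, and mutant spleens lie at 7758 to 8797 CPM and 5950 to 7130 CPM.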

How the data were processed

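Total RNA of 7 mouse spleens was sequenced in pairs of reads. Build mm10, TopHat2 2.0.12, featureCounts, Subread 1.4.6, bcl2fastq 2.17.1.14 and edgeR are named per the submitters' processing notes. For settings and strandedness, nothing is given in the sources used here. What the authors deposited are raw counts of each gene and a table of scaled CPM, recorded as a score because its column sums differ.

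Counts were tested with edgeR 4.0.16 (R 4.3.3; quasi-likelihood, TMM, filterByExpr, genotype as the sole term) over all 24062 genes, 15188 of them tested, with Benjamini-Hochberg adjustment over these at 0.05. CPM use TMM factors. SE is the log2 fold change over the square root of F. For the ratios 0.5 was added to each count. RPKM use exon lengths of GENCODE basic transcripts. Deposited starts count from 0 and are given from 1.

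Members and lists were chosen with earlier results of these data known. One gene of the ubiquitin list is not reported here, and the list's counts and median leave it out. Named genes were the catalytic subunits, the extremes of each role, members called against the majority and, per outside list, up to 2 genes of smallest p; others are examples chosen after their values were seen. Alternatives covered DESeq2 1.42.0, limma 3.58.1, other scalings and filters, a replicate block and libraries left out. Few counts limit precision for Psma8 and Psmb11, and for Psma8 the mutant spleens also differed widely among themselves.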

Additional observations from a re-analysis of the deposited data

Results flagged for a closer look

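In groups of 4 wild-type spleens, a spleen was singled out where its gap to the nearest other over the group's range exceeded Dixon's critical value for 4 samples, which chance gives in about 1 in 20 groups. This held in 5 of 43 groups examined. Psmb6 was low in wild-type spleen 4 at 54.8 CPM (nearest 81.3 CPM), and the log2 ratio of Psmb9 to Psmb6 was correspondingly high there at 0.85 (nearest 0.28). Psma1 was low in wild-type spleen 3 at 96.0 CPM (nearest 105.4 CPM). Psma3 was high in wild-type spleen 4 at 119.9 CPM (nearest 101.5 CPM), as was Psma7 at 95.4 CPM (nearest 92.4 CPM). The 4 CPM values all lay below every mutant value of their gene, and the mutant group of 3 was not examined in this way.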

How the results depend on the processing

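Of the 34 members that rose, 30 were called higher in all 17 alternative fits, and 33 in every fit that left out 1 library, the exception being Psmd5. Leaving out 1 library gave 33 to 34 members higher, 0 to 1 lower, a member median log2 fold change of 1.24 to 1.46 and a log2 ratio of the summed CPM of 1.19 to 1.32. With library size alone 31 members rose, the median was 1.06 and the summed ratio 1.00. Psmb11 was not called, so that 0 members were lower, with DESeq2, limma-voom, no filter on low counts (adjusted p = 0.0765), an adjusted p under 0.01, or without wild-type spleens 1 and 2 (adjusted p = 0.273); without mutant 1 the 1 member called lower was Psma8 (-0.94), not Psmb11. Without mutant 2, Psma8 stood at 1.87. At an adjusted p under 0.01, 32 members rose (not Psmd5 and Psmd11), beside 3038 genes higher and 2924 lower over the table. Differences of the 3 subunit ratios ranged from -2.62 to -2.30 (Psmb9 to Psmb6), -2.09 to -1.69 (Psmb10 to Psmb7) and -1.14 to -0.82 (Psmb8 to Psmb5). TGANTCAGC stood in 0 members when only the 250 bases before the start were searched. Causes were not tested.

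The labels state no pairing of the spleens. Deviations of spleens that share a number had correlations across genes of 0.131, -0.229 and 0.147, inside the span for unlike numbers (-0.279 to 0.264). With so few spleens these correlations cannot decide whether the numbers pair them. With the replicate block 30 members were higher and 0 lower, the base chaperones Psmd9 (adjusted p = 0.0545), Psmd10 (0.0599) and Psmd5 (0.0906) and the lid subunit Psmd11 (0.0884) no longer being called, nor the core chaperone Psmg4 (0.0543), beside 2950 genes higher and 3140 lower. Of the 5 genes for ubiquitin and its activating enzymes, 0 were called in that fit. Of the 4 genes known to control proteasome transcription, 1 was called there, as lower. Counts are few for Psma8 and Psmb11, and for Psma8 the mutant spleens also differed widely (8.10, 0.493 and 0.684 CPM).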
